A study of Mus musculus with 14 samples.

Results

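The amino acid transporters of the mouse intestine and of its tumors were followed on 14 expression arrays. The members were taken by name, as every gene on the array whose symbol belongs to the solute carrier families Slc1, Slc3, Slc6, Slc7, Slc36, Slc38 or Slc43, written with the family letter a and a number. The rule found 59 genes of 36161 gene names, with 7 of family Slc1, 2 of Slc3, 17 of Slc6, 15 of Slc7, 4 of Slc36, 11 of Slc38 and 3 of Slc43, measured by 76 probes. The scanner flagged 50 of them as well above background throughout 1 or more groups, 23 on all 14 arrays, and 7 (Slc6a2, Slc6a11, Slc6a15, Slc7a10, Slc7a12, Slc7a13 and Slc36a3) on none. Slc6a18 and Slc7a2 passed on single arrays but throughout no group.

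The study profiled whole small intestine (3 arrays) and whole colon (3 arrays), labelled as C57BL/6J mice, and, from APCmin/+ mice, macroscopic adenomas (3 arrays) and non-tumor tissue adjacent to adenoma (2 arrays). APCmin/+ mice carry 1 mutant copy of the tumor suppressor Apc in every cell and form many intestinal adenomas. The remaining group was the colorectal carcinoma cell line CT26 from ATCC (3 arrays), which grows in culture and comes from a BALB/c mouse, so that strain, culture and tumor cannot be told apart in any comparison that includes it. The labels name no treatment and no age. The study's methods put all its mice, APCmin/+ included, on a C57BL/6J background and call its wild type mice adult. They also state that APCmin/+ mice found to be suffering were given the analgesic buprenorphine, without saying which mice. In the study's list of samples, the adenoma and adjacent arrays all stand under 1 APCmin/+ mouse, so for these groups the spread below is that between pieces of tissue and not between animals. The same list puts 1 of the colon arrays under an APCmin/+ animal, although GEO labels all 3 as C57BL/6J. The study's methods also name APCmin/+ mice as a source of normal colon tissue. Its design for DNA methylation describes the colon and small intestine as mucosa of healthy mice.

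Amino acid transport in the gut runs through the absorptive enterocyte. Sodium- or proton-driven carriers and exchangers of the brush border bring free amino acids in, and a different set at the basolateral side exchanges or releases them toward the blood. Several exchangers are pairs of a heavy chain, Slc3a1 or Slc3a2, which carries the complex to the membrane, and a light chain of family Slc7, which forms the pore. Dividing cells rely on another set, among them Slc7a5, Slc1a5 and Slc7a11, and when amino acids are short the transcription factor ATF4 binds C/EBP-ATF elements and raises several of these genes. Some members carry other cargo: Slc6a4 moves serotonin, Slc6a6 taurine and Slc6a8 creatine.

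The element to which ATF4 binds was looked for in the promoters of the members. The search was prompted by the 13 members higher in CT26 than in colon, of which 9 belong to the set used by dividing cells. That set was chosen with earlier results of these data known, so the count is no independent support. Of all genes tested, 21% were higher in CT26 than in colon. The letters searched were TGATGNAA, on both strands, in RefSeq windows of the build GRCm38.p6 that run from 250 bases before to 50 bases after each annotated start; no other motif was searched. A window was given for 41 of the 59 members, and 3 of them, Slc7a11, Slc1a4 and Slc7a7, held the element (7.32%), against 1219 of all 27025 genes with a window (4.51%). Members of the dividing-cell list with no window given, and so not searched, were Slc7a5, Slc7a3, Slc1a5 and Slc38a1. Of 17 genes with a window on a list of ATF4 and its targets that are no members, 7 held it (41.2%), namely Aars, Asns, Atf3, Chac1, Gars, Nupr1 and Trib3. Of these 7, Atf3 was lower in CT26 than in colon and Nupr1 was not called, while the others were higher. The windows below show the element for the 3 members and, for comparison, for Asns and Chac1. Each runs 5′ to 3′ along the gene, in lower case with the element in capitals; TTGCATCA is the same element read on the other strand.
Slc7a11, chr3:50443639-50443688, minus strand: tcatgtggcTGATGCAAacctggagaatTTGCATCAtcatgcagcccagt
Slc1a4, chr11:20332710-20332739, minus strand: agcctccagcgtgcctcctgcgTTGCATCA
Slc7a7, chr14:54418067-54418096, minus strand: ccgcttgggctTGATGAAAggttcactggg
Asns, chr6:7693215-7693244, minus strand: gtcccagccacaTGATGAAActtcccgcac
Chac1, chr2:119351037-119351066, plus strand: ccttccctgccgTTGCATCActcctgccag
The Slc7a11 window held the element 2 times, on opposite strands, with first bases at -66 and -47 from the start. The Slc7a7 match shown begins at -141, and another match, not shown, begins at -1 from the same start. Slc7a11 and Slc1a4 were higher in CT26 than in colon and Slc7a7 was lower, as described below. A match of letters is a description and not a site of binding.

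All levels below are log2 signals from the scanner minus the 75th percentile of the same array, taken over all spots that are no controls. Each unit is a doubling, and each gene was read from its brightest probe. Only 46.9% to 58.2% of probes were above background on an array, so 0 is not a high level among these. A gene was called changed where the log2 fold change reached 1.2 in either direction and the adjusted p was 0.01 or less (limma, Benjamini-Hochberg over all probes tested). Where no array of the lower group was above background, the fold is given as a lower bound, the mean of the higher group against the dimmest signal still above background. Levels are comparable between groups for the same gene, not between genes. In whole tissue, fewer cells of a type and less RNA of a gene per cell cannot be told apart.

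One array stood against its label. Colon replicate 3 had a median of 5.05 over 10 enterocyte markers of the small intestine (Sis, Alpi and others), where the other colon arrays had -2.96 and -2.64 and the small intestine arrays 5.78 to 8.81. Its median over 10 colonocyte markers was 2.99, against 4.34 and 5.03 on the other colon arrays and -0.17 to 1.10 in small intestine. It also had the lowest share of probes above background, 46.9%, with 49.2% to 58.2% on the other arrays. Calls and list counts against colon are therefore given with all 3 arrays and without colon replicate 3, and single CT26 values also without it where they moved by over 1.5 times. All 8 epithelial markers (Epcam, Cdh1 and others) were above background on all tissue arrays, whereas in CT26 only Krt18 and Cldn7 were above background on all arrays and Epcam, Cdh1, Krt19, Cldn3 and Vil1 on none.

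**Figure D1:**
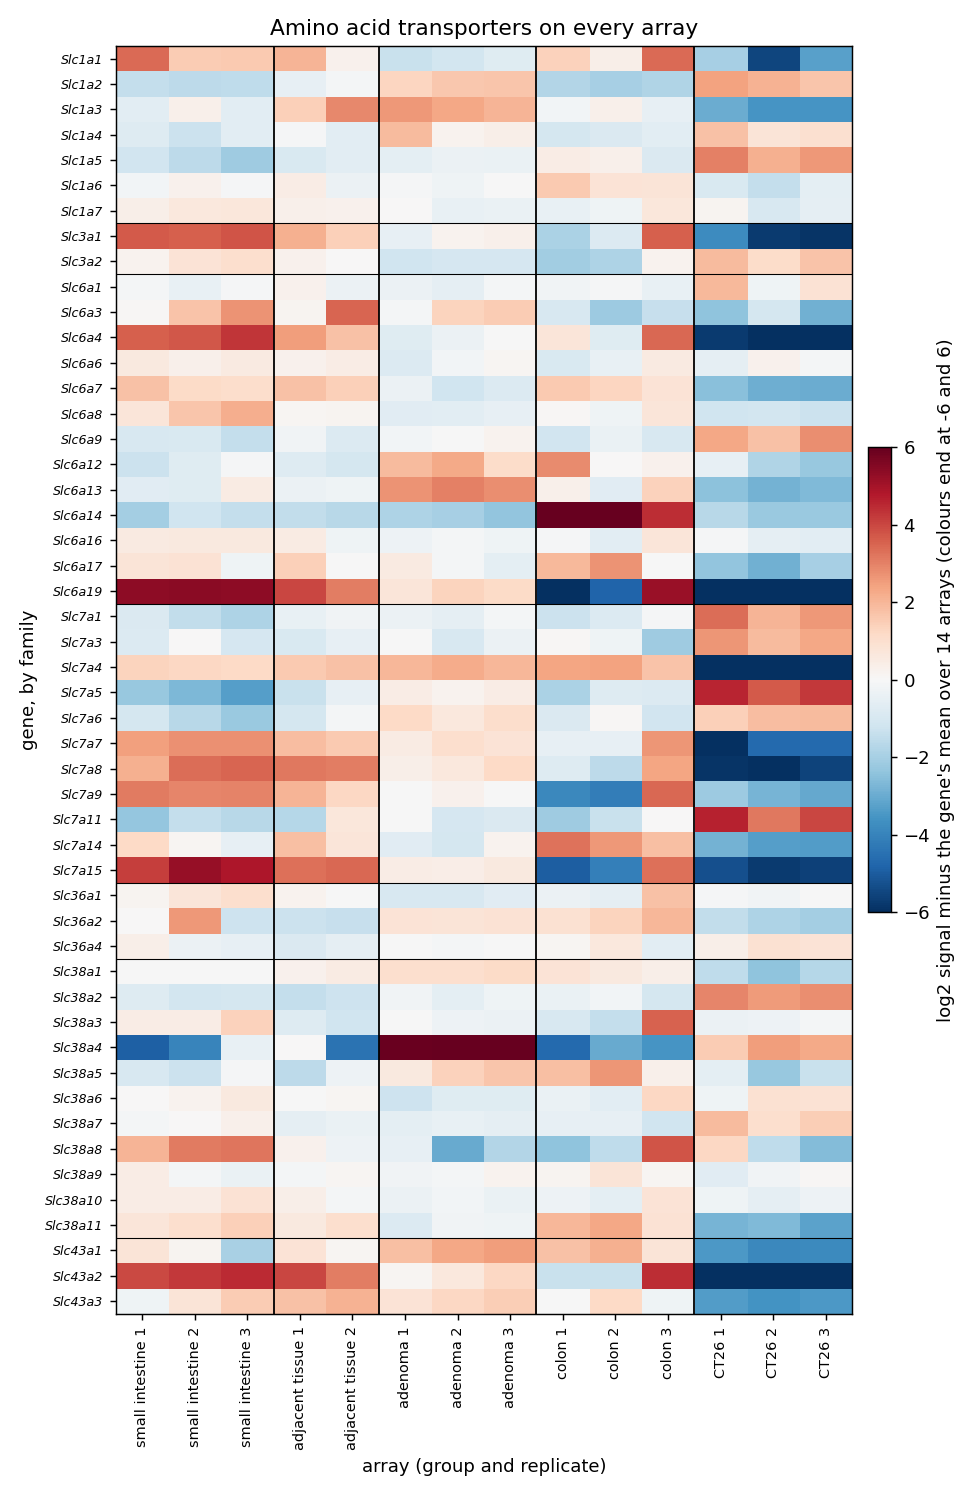
Heat map of the 50 members flagged above background throughout 1 or more groups (rows, by family) on the 14 arrays (columns, by group and replicate). Colours give the log2 signal minus the gene's mean over the 14 arrays. Slc6a19, Slc3a1, Slc7a9, Slc7a15 and Slc43a2 run from well above their mean in small intestine to near it in adenoma, and colon replicate 3 carries the small intestine pattern for them.

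In healthy small intestine the carriers of absorption set the pattern. Slc6a19, the main sodium-coupled carrier of neutral amino acids in the brush border, read at chr13:73818718-73818777 of the mm9 build, was 4.82, 4.89 and 4.84 on the 3 small intestine arrays, 3.48 and 2.52 in adjacent tissue, and 0.18, 0.78 and 0.62 in adenoma. On the colon arrays it was -7.07, -5.37 and 4.65, the last on colon replicate 3, and in CT26 -6.92, -7.52 and -7.50. The groups small intestine, adjacent tissue and adenoma did not overlap and lay in this order. Adenoma was below small intestine (log2 fold change -4.32, SE 0.20, limma adjusted p = 5.00e-05) and below adjacent tissue by a log2 fold change of -2.48 (SE 0.34, limma adjusted p = 0.00965).

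Slc3a1 and Slc7a9, the heavy and the light chain of the apical exchanger for cystine and dibasic amino acids, ran alongside. Slc3a1 was 5.23, 5.12 and 5.33 in small intestine, 3.69 and 2.96 in adjacent tissue and 1.03, 1.76 and 1.84 in adenoma. Slc7a9 was 6.56, 6.37 and 6.38 in small intestine, 5.48 and 4.68 in adjacent tissue and 3.39, 3.69 and 3.41 in adenoma. For both chains the 3 groups did not overlap, with adenoma lowest. The fold changes of adenoma against small intestine were -3.68 (SE 0.24, limma adjusted p = 1.18e-04) for Slc3a1 and -2.94 (SE 0.17, limma adjusted p = 8.69e-05) for Slc7a9 on the log2 scale. Against adjacent tissue they were -1.78 and -1.58 and neither was called (limma adjusted p = 0.0222 and 0.0172).

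**Figure D2:**
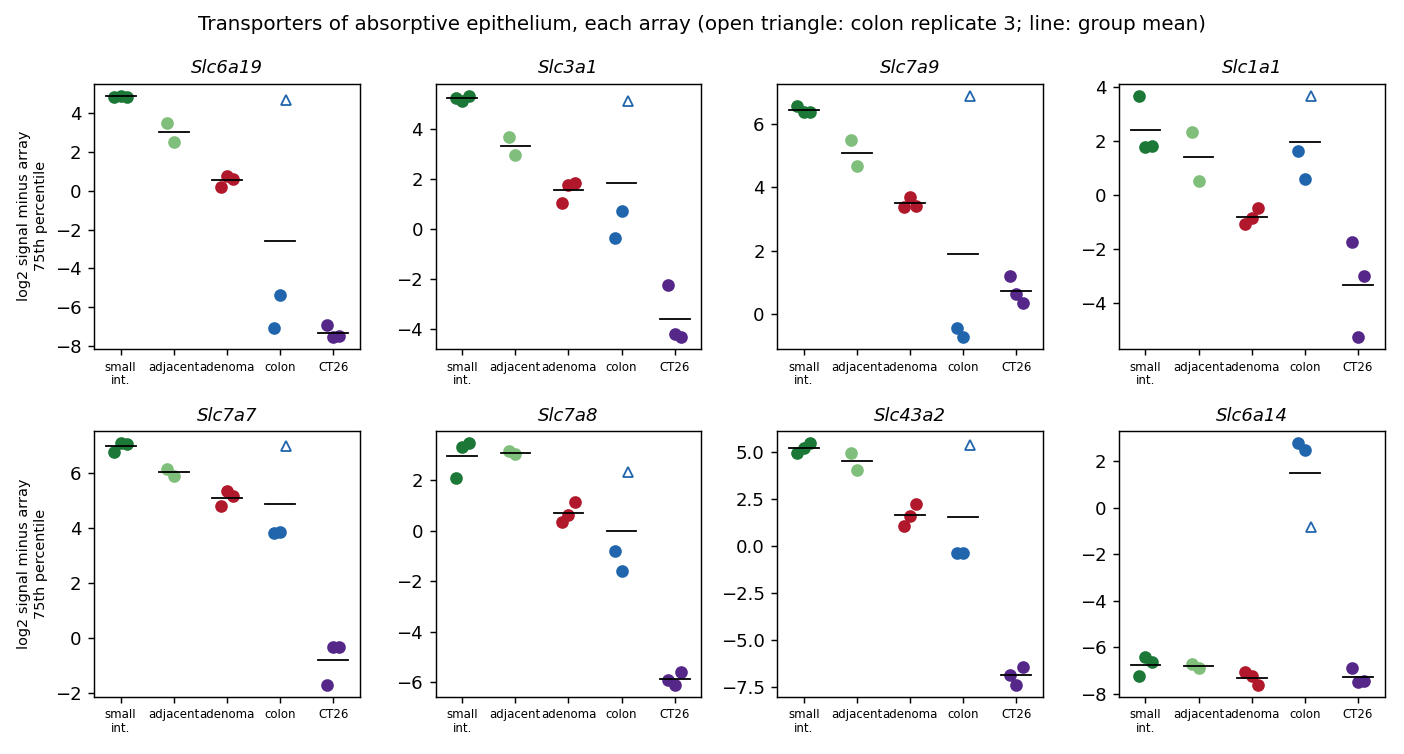
Log2 signal minus the array's 75th percentile (vertical axes, each panel with its own range) of 8 transporters of absorptive epithelium on each array of the 5 groups, with the group mean as a line and colon replicate 3 as an open triangle. Slc6a19 falls from 4.82 to 4.89 in small intestine to 0.18 to 0.78 in adenoma, and Slc6a14 is above background in colon alone.

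Adenoma and small intestine were compared first. Of 47 members tested, 8 were higher and 15 lower in adenoma, which is 48.9% of the members, whereas 22.4% of all genes tested were called in either direction, 11.3% higher and 11.1% lower. All 23 had the same direction on both slides, which follows from the groups not overlapping for these genes and is no separate support. The median log2 fold change was -0.50 over the members and -0.15 over all genes, and the median size was 1.5 against 0.69. From the authors' normalized values the split was 13 higher and 13 lower, with 9.17% of all genes higher and 7.05% lower.

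Of the 8 carriers on the list of apical uptake, 7 were tested, 6 were lower and none was higher in adenoma, with a median log2 fold change of -2.94. Besides Slc6a19, Slc3a1 and Slc7a9 these were Slc1a1, which takes up glutamate and aspartate (log2 fold change -3.21, SE 0.51, limma adjusted p = 0.00242), Slc6a8 (-2.11) and the proton-coupled carrier Slc36a1 (-1.5). The taurine carrier Slc6a6 had -0.76 and was not called. The second Slc36a1 probe, above background on all 14 arrays, showed a smaller difference of -0.84. Slc6a14, the remaining carrier of the list, was above background on none of the small intestine, adjacent and adenoma arrays.

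The 10 tested neighbours of apical uptake that are no members, among them the peptide carrier Slc15a1 and peptidases such as Anpep, Dpp4 and Enpep, were all lower in adenoma (median -4.01). The list of neighbours also holds amino acid carriers, among them Slc6 genes whose symbols end in a letter and so fall outside the member rule. Slc15a1 had -4.30 (limma adjusted p = 9.15e-05). The enterocyte markers moved with these carriers, with 6 of 10 lower and none higher, and their summed level on the log2 scale was 10.64 to 12.18 in small intestine, 10.89 and 10.99 in adjacent tissue and 8.94 to 9.68 in adenoma. The summed level of 8 epithelial markers was 10.96 to 11.23 in small intestine and 10.56 to 10.82 in adenoma. The part of enterocyte content in the result was not tested.

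At the basolateral side the members moved in both directions. Slc7a7, which with the heavy chain Slc3a2 exports cationic amino acids, was 6.76, 7.06 and 7.03 in small intestine and 4.78, 5.33 and 5.14 in adenoma. Slc43a2, a carrier that lets branched-chain and aromatic amino acids out, was 4.95, 5.20 and 5.46 in small intestine, 4.97 and 4.06 in adjacent tissue and 1.09, 1.60 and 2.23 in adenoma. Both were lower on every adenoma array, by log2 fold changes of -1.87 (SE 0.20, limma adjusted p = 5.15e-04) and -3.57 (SE 0.31, limma adjusted p = 2.42e-04). The light chain Slc7a8 (-2.26) and the heavy chain Slc3a2 (-1.75) were lower as well.

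Slc7a6, the other y+L light chain besides Slc7a7, went the opposite way, from -2.89, -3.49 and -4.08 in small intestine to -0.62, -1.19 and -0.78 in adenoma (log2 fold change 2.62, SE 0.32, limma adjusted p = 8.91e-04). Slc38a5, a carrier of glutamine and other neutral amino acids, was above background on all adenoma arrays and on no small intestine array and was at least 1.87-fold higher (limma adjusted p = 0.00582). The call for Slc38a5 was lost with the slide as a block, and its log2 difference was 0.47 in the authors' normalized values and 0.21 after normexp background correction. Slc43a1 had a log2 fold change of 2.56 with a standard error of 0.65 and was not called (limma adjusted p = 0.0158), its small intestine values being -2.41, -3.02 and -5.12.

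The heavy and light chains thus split. Of 7 tested, Slc7a5 and Slc7a6 were higher, Slc3a1, Slc3a2, Slc7a7, Slc7a8 and Slc7a9 lower. Slc7a5, the light chain for large neutral amino acids that marks many tumors, was -2.55, -2.95 and -3.58 in small intestine, -1.59 and -0.73 in adjacent tissue and 0.20, -0.07 and 0.17 in adenoma. The 3 groups rose in this order with no overlap, and adenoma was 8.76-fold above small intestine (log2 fold change 3.13, SE 0.27, limma adjusted p = 2.56e-04). Its heavy chain Slc3a2 was 5.32, 5.93 and 6.13 in small intestine, 5.39 and 5.13 in adjacent tissue and 3.92, 4.10 and 4.11 in adenoma, so that light and heavy chain moved in opposite directions.

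The probes of Slc7a5 differed. The brightest lies at chr8:124405136-124405195 of mm9 and the other at chr8:124430996-124431055, toward the 5′ end of this minus-strand gene. The second probe, above background on all 14 arrays, read -3.11, -3.11 and -2.70 in small intestine and -2.80, -2.87 and -3.00 in adenoma, a difference of 0.08, and the CT26 arrays at -0.84, -1.44 and -1.09 were above all others but colon replicate 3, at -0.31. The rise of Slc7a5 in adenoma therefore rests on 1 of 2 probes.

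Of the 9 tested on the list of dividing-cell carriers, Slc7a5 was higher and Slc3a2 lower, and 8 of the 9 estimates were above 0. Slc1a4 had 1.73 (limma adjusted p = 0.0178), Slc1a5 1.16, Slc6a9 1.11 (limma adjusted p = 0.00449), Slc38a1 1.07 (limma adjusted p = 0.0013), Slc7a1 1.06, Slc38a2 0.63 and Slc7a3 0.15 on the log2 scale, each short of the fold or the adjusted p. From the authors' normalized values, Slc1a4, Slc1a5, Slc38a1, Slc6a9, Slc7a1 and Slc43a1 were called higher in addition. Over the same arrays 8 of 10 proliferation markers (Mki67, Top2a and others) were higher in adenoma and none lower, and their part was not tested.

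The member that set adenoma apart most was Slc38a4, a carrier of neutral amino acids best known from liver and placenta, read at chr15:96825482-96825541. It was 3.58, 3.92 and 4.0 on the adenoma arrays. In small intestine it was -7.25, -6.35 and -2.83, with only the last above background, in adjacent tissue -2.33 and -6.81, in colon -7.02, -5.38 and -5.90, and in CT26 -0.86, 0.14 and -0.09. Each adenoma array lay above every array of the other groups. The log2 fold change against small intestine was 9.31 (SE 1.03, limma adjusted p = 6.04e-04); against adjacent tissue it was 8.40 (SE 1.22) and missed the call at a limma adjusted p of 0.0111.

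**Figure D3:**
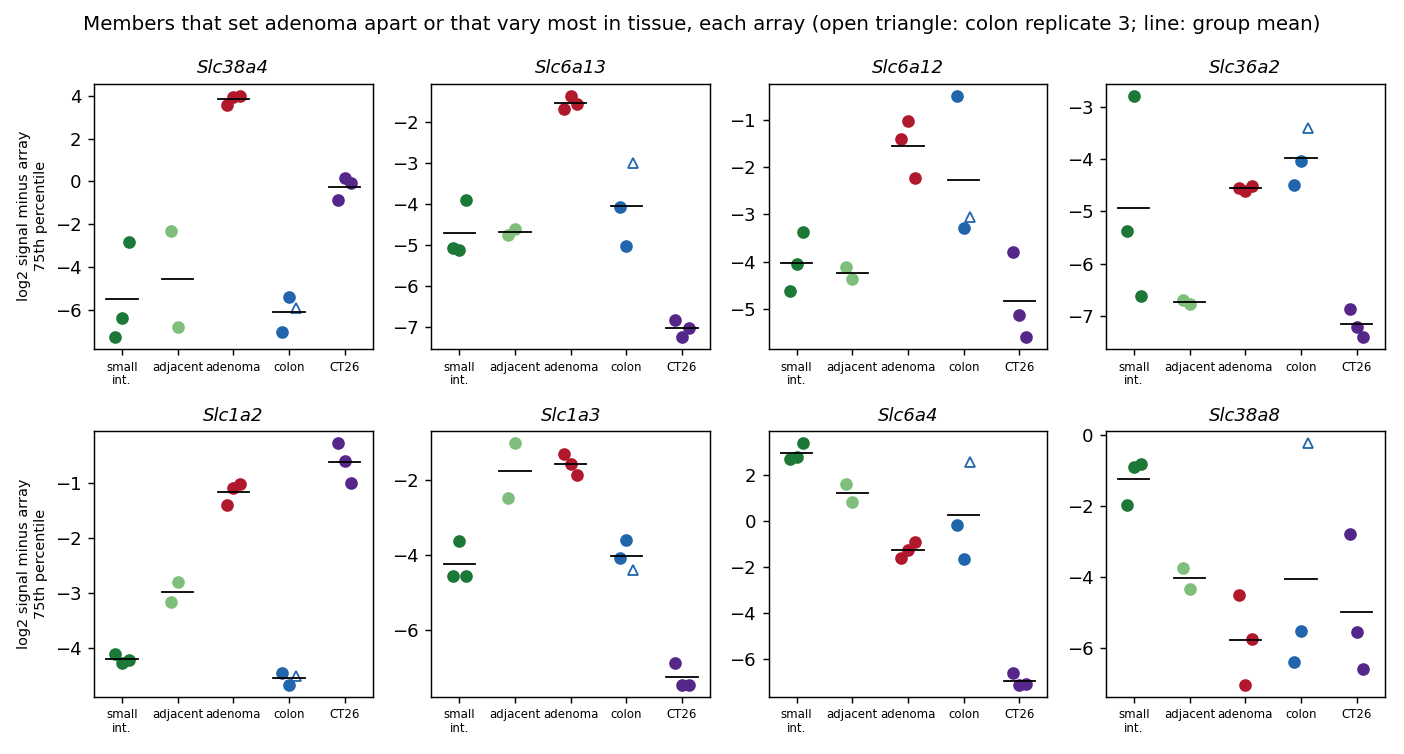
Log2 signal minus the array's 75th percentile (vertical axes, each panel with its own range) of 8 members on each array of the 5 groups, with the group mean as a line and colon replicate 3 as an open triangle. Slc38a4 and Slc6a13 are highest on the 3 adenoma arrays, with Slc38a4 at 3.58 to 4.0, and Slc6a4 falls from small intestine through adjacent tissue to adenoma and is lowest in CT26.

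Carriers of GABA, betaine and glutamate were also among the members that rose. Slc6a13 and Slc6a12, which carry GABA and betaine, were -1.68, -1.36 and -1.57 and -1.41, -1.03 and -2.24 in adenoma. In small intestine Slc6a13 was -5.07, -5.12 and -3.89, above background on 1 of 3 arrays, and Slc6a12 -4.62, -4.06 and -3.38, above background on 2 of 3. The log2 fold changes were 3.16 (SE 0.34, limma adjusted p = 5.53e-04) and 2.46 (SE 0.41, limma adjusted p = 0.00296). Slc1a2, a glutamate transporter of astrocytes, went from -4.11, -4.26 and -4.21 in small intestine through -3.17 and -2.81 in adjacent tissue to -1.40, -1.09 and -1.03 in adenoma, with 1 of 3 small intestine arrays above background (log2 fold change 3.02, SE 0.17, limma adjusted p = 8.58e-05).

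Slc1a3, another glutamate transporter of glia, was -4.56, -3.62 and -4.57 in small intestine, and here adjacent tissue at -2.48 and -1.03 overlapped adenoma at -1.31, -1.58 and -1.88. Slc1a3 was 6.32-fold above small intestine in adenoma and 0.16 on the log2 scale above adjacent tissue (limma adjusted p = 0.807). Of the other Slc1a2 probes, 1 was above background on 4 of 14 arrays and 1 on none. In this order, their adenoma means differed by 0.65 and 0.32 from small intestine and by 0.02 and 0.66 from adjacent tissue on the log2 scale. The rise of Slc1a2 in adenoma therefore rests on its brightest probe, the others being dim. The study counts Slc1a2 in the expression signature of intestinal stem cells. It lists the gene among those downregulated in differentiated cells with a gain of promoter methylation. The part of stem cells in the rise of Slc1a2 was not tested. Of 9 tested markers of enteric neurons and glia, 1 was higher and 1 lower in adenoma. All 8 gastric gland markers (Gkn3, Muc6, Tff2 and others) were higher in adenoma, with medians of 3.88 to 4.15 against -7.08 to -2.28 in small intestine, and so were 4 of 6 mast cell markers and 3 of 6 fibroblast markers; their part in these rises was not tested.

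Of the 9 tested on the list of neurotransmitter, betaine, taurine and creatine carriers, 2 were higher in adenoma, Slc6a12 and Slc6a13, and 3 lower, Slc6a4, Slc6a7 and Slc6a8. Slc6a4, the serotonin transporter that enterocytes use to clear serotonin, was 2.71, 2.81 and 3.40 in small intestine, 1.62 and 0.86 in adjacent tissue and -1.62, -1.26 and -0.92 in adenoma, with no overlap among the 3 groups. Slc7a15, a relative of the light chains with a preference for aromatic amino acids, was 2.79, 3.87 and 3.52, then 1.97 and 2.13, then -0.88, -0.96 and -0.75. The log2 fold changes of adenoma against small intestine were -4.24 (SE 0.26, limma adjusted p = 1.02e-04) and -4.25 (SE 0.28, limma adjusted p = 1.17e-04). The second Slc7a15 probe gave -4.34.

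Slc38a8, a sodium-coupled carrier of neutral amino acids, was above background on all small intestine arrays (-1.98, -0.91 and -0.83) and on no adenoma array, at least 13.1-fold lower (limma adjusted p = 0.00146). The proline transporter Slc6a7 was lower by a log2 fold change of -2.13, above background on 1 adenoma array, and the orphan carrier Slc38a11 by -1.5, above background on 2. In the SNAT family Slc38, Slc38a4 and Slc38a5 were higher and Slc38a8 and Slc38a11 lower of 11 tested, with a median of -0.58. Among the lysosomal or vesicular members, Slc36a1 was the only one of 5 tested to be called; Slc38a9, a sensor of lysosomal arginine, had -0.03, Slc38a7 -0.58, Slc36a4 0.09 and Slc6a17 -0.50.

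Adenoma was then set against adjacent tissue, which by the study's list came from the same mouse. Of 48 members tested, 4 were higher and 6 lower, 20.8% of the members, whereas 4.18% of all genes tested were called, 2.4% higher and 1.78% lower. The comparisons of adenoma share its 3 arrays. The higher members were Slc6a13, above background on no adjacent array (at least 7.71-fold, limma adjusted p = 0.0016), Slc6a12 (log2 fold change 2.69), Slc1a2 (1.81) and Slc36a2, also above background on no adjacent array (limma adjusted p = 0.00248). No lower bound can be given for Slc36a2. Its adenoma mean of -4.56 lay below the dimmest signals still above background on the adjacent arrays, -4.429 and -4.537. The lower ones were Slc7a15 (-2.91, SE 0.16, limma adjusted p = 0.0016), Slc6a4 (-2.5), Slc6a19 (-2.48), Slc7a8 (-2.40), Slc6a7 (-2.38) and Slc3a2 (-1.22). All 10 had 1 direction on both slides, which again follows from the groups not overlapping for these genes. With the slide as a block 3 calls were left, Slc6a13, Slc36a2 and Slc7a15. Without adenoma replicate 2 or 3 there were 0, without adenoma replicate 1 there was 1, and without adjacent replicate 1 there were 4. The normexp background correction gave 2 higher and 6 lower.

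Slc7a8, which with Slc3a2 exchanges neutral amino acids, kept its small intestine level beside the adenoma: it was 2.10, 3.29 and 3.45 in small intestine, 3.14 and 3.03 in adjacent tissue and 0.32, 0.61 and 1.13 in adenoma. Slc6a7 showed the same order of groups, at -2.5, -3.11 and -3.24, then -2.54 and -2.85, then -4.64, -5.48 and -5.11. Adjacent tissue lay within the small intestine range for both genes, and adenoma lay apart. Slc36a2, a proton-coupled carrier of glycine, alanine and proline, was -6.69 and -6.78 in adjacent tissue and -4.55, -4.62 and -4.52 in adenoma. It was not called against small intestine, where it was -5.38, -2.79 and -6.62 and above background on 1 array, replicate 2. On that array the median of 8 adipocyte markers was 1.92, against -0.47 and -4.02 on the other small intestine arrays. The part of fat in the Slc36a2 value was not tested.

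**Figure D4:**
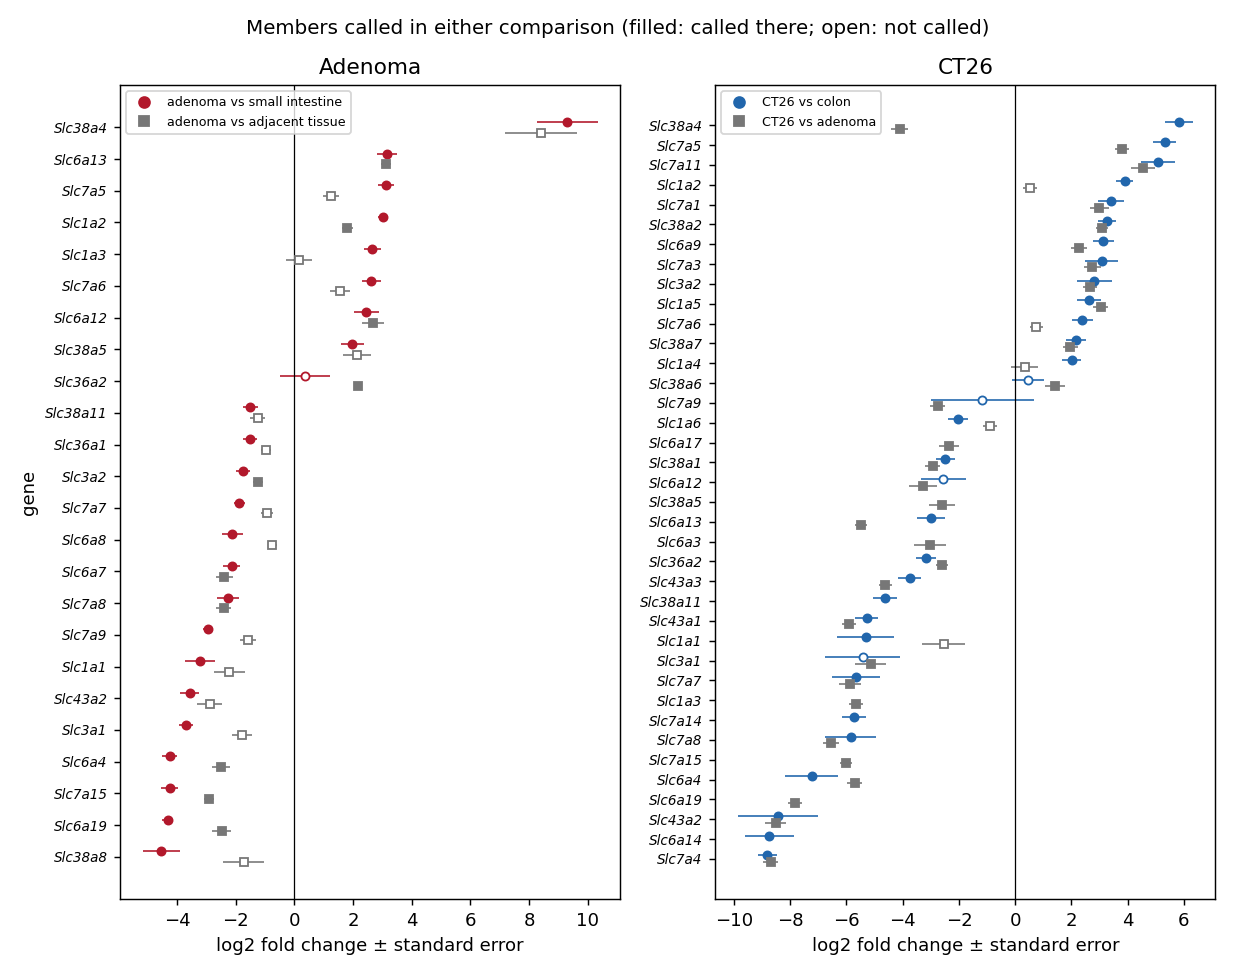
Log2 fold change with its standard error (horizontal axes) of each member called in at least 1 of the comparisons shown, for adenoma against small intestine and adjacent tissue (left) and for CT26 against colon and adenoma (right). Filled marks were called and open marks were not, and where a group had no array above background the mark is the fitted value and no bound. Among values measured above background on all arrays of both groups, Slc7a5 lies at 3.13 against small intestine on the left and at 5.32 against colon on the right.

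Adjacent tissue against small intestine gave no call among 42 members tested, by limma at an adjusted p of 0.01, and 15 (35.7%) had an unadjusted p below 0.05, against 30.6% of all genes. Of all genes tested, 0.00924% were called. The largest differences were Slc38a8 (-2.80, SE 0.42), Slc1a3 (2.5, SE 0.52), Slc3a1 (-1.90, SE 0.28), Slc7a5 (1.87, SE 0.41) and Slc6a19 (-1.85, SE 0.32) on the log2 scale, with limma adjusted p-values from 0.0467 to 0.0639. The 7 tested carriers of apical uptake all had estimates below 0, with a median of -1.36, none of them called. Of 7 epididymis markers, Gpx5 was above background on both adjacent arrays (mean 3.95) and all 3 adenoma arrays (mean 1.72), Adam28 on 1 adjacent and 3 adenoma arrays, and the other 5 on no array; on the small intestine arrays none of the 7 was.

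Colon and small intestine, the normal tissues, were compared with and without colon replicate 3. With all 3 colon arrays none of 42 members tested was called by limma, and 19 (45.2%) had an unadjusted p below 0.05, against 23.9% of all genes; of all genes, 0.00969% were called, 0.00484% higher and 0.00484% lower. Without colon replicate 3, 2 of 48 members tested were higher and 10 lower in colon, and 7.23% of all genes were called, 3.34% higher and 3.9% lower. The higher ones were Slc6a14 and Slc38a5. Slc6a14, the broad carrier of neutral and cationic amino acids of the distal gut, was 2.76, 2.49 and, on replicate 3, -0.81 in colon and above background on no array of any other group. With all 3 arrays it was at least 64.8-fold above small intestine and was not called (limma adjusted p = 0.0352). Without replicate 3 it was at least 143-fold above small intestine (limma adjusted p = 1.07e-04), and Slc38a5 at least 3.81-fold (limma adjusted p = 0.00827).

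The lower ones included the brush border carriers Slc6a19, Slc7a9 and Slc3a1 and the basolateral Slc43a2, Slc7a8, Slc7a7 and Slc3a2. Slc6a19 and Slc7a15 were above background on neither colon replicate 1 nor 2 and were at least 925-fold and at least 337-fold below small intestine (limma adjusted p = 2.11e-04 and 2.20e-04). Slc7a9 was -0.44, -0.71 and 6.88 in colon and had a log2 fold change of -7.01 without replicate 3 (SE 0.23, limma adjusted p = 1.07e-04). Slc43a2 was -0.35, -0.37 and 5.39 and had -5.57, and Slc3a1 was -0.36, 0.70 and 5.11 and had -5.06. Slc7a8 (-4.15), Slc6a4 (-3.87), Slc7a7 (-3.12), Slc3a2 (-2.64) and Slc38a8 (at least 13.6-fold) completed the list. Slc7a15 was 1.96 on colon replicate 3, between the other colon arrays (-6.28 and -5.45) and small intestine. For each of the 12 genes the call rests on leaving out that array, which lay on the small intestine side of the other colon arrays for all 12.

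CT26 and colon were compared next. Of 42 members tested, 13 were higher and 15 lower in CT26, 66.7% of the members, whereas 37.2% of all genes tested were called, 21% higher and 16.2% lower. Without colon replicate 3, 13 of 46 were higher and 20 lower, with all 28 calls kept, and 39.5% of all genes were called, 20.1% higher and 19.4% lower. The median log2 fold change was -0.54 over the members and 0.32 over all genes. From the authors' normalized values the split was 13 higher and 10 lower, with 16.2% of all genes higher and 13.6% lower.

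Of the 10 tested carriers of dividing cells, 9 were higher and 1, Slc38a1, was lower, with a median of 3.11. Without colon replicate 3 the count was again 9 higher and 1 lower, with a median of 3.05. Of 10 proliferation markers, 8 were higher in CT26 than in colon and none lower (median 2.59), and 9 without colon replicate 3; their part was not tested. Slc7a5 was 4.29, 3.43 and 3.99 in CT26 and -2.14, -1.05 and -1.07 in colon, 40.0-fold higher (log2 fold change 5.32, SE 0.41, limma adjusted p = 3.96e-05); its second probe differed by 0.94, and by 1.82 without colon replicate 3. Slc3a2 was 7.04, 6.23 and 6.84 in CT26 and 3.06, 3.26 and 5.34 in colon, a log2 fold change of 2.82 (SE 0.61, limma adjusted p = 0.00632) with all colon arrays and 3.54 (SE 0.34) without replicate 3. Both chains of the exchanger were thus higher in CT26, whereas in adenoma the heavy chain was lower than in small intestine.

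Slc7a11, the light chain that exchanges cystine for glutamate and whose promoter window above held the ATF4 element on both strands, was -0.25, -1.73 and -0.89 in CT26. It was above background on no colon, adenoma or small intestine array and was at least 12-fold above colon (limma adjusted p = 3.71e-04), and at least 16.5-fold without colon replicate 3. In adjacent tissue it was -6.61 and -4.22. Slc1a5, the carrier that brings in glutamine, was 6.06, 5.16 and 5.62 in CT26 and 3.47, 3.31 and 2.16 in colon (log2 fold change 2.63, SE 0.44, limma adjusted p = 0.00179), and its second probe gave 2.34.

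Slc38a2, the neutral carrier that cells raise when amino acids are short, was 6.34, 5.95 and 6.20 in CT26 and 3.01, 3.27 and 2.38 in colon (log2 fold change 3.27, SE 0.33, limma adjusted p = 1.52e-04). The arginine and lysine carriers Slc7a1 and Slc7a3 were higher by 3.40 (SE 0.46, limma adjusted p = 6.57e-04) and 3.08 (SE 0.58, limma adjusted p = 0.00336); without colon replicate 3 Slc7a3 had 2.39. Slc6a9, which takes up glycine, was higher by 3.14 and its second probe by 3.18. Slc1a4, a carrier of alanine, serine and cysteine, was higher by 2.02 (SE 0.34, limma adjusted p = 0.00206).

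Slc38a1, a carrier of glutamine like Slc38a2, ran against the set, at 1.42, 0.54 and 1.23 in CT26 and 3.76, 3.55 and 3.31 in colon, a log2 fold change of -2.48 (SE 0.33, limma adjusted p = 6.53e-04). The other Slc38a1 probes, above background on 14 and 12 arrays, gave -4.45 and -3.01. All 3 probes were thus lower in CT26.

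**Figure D5:**
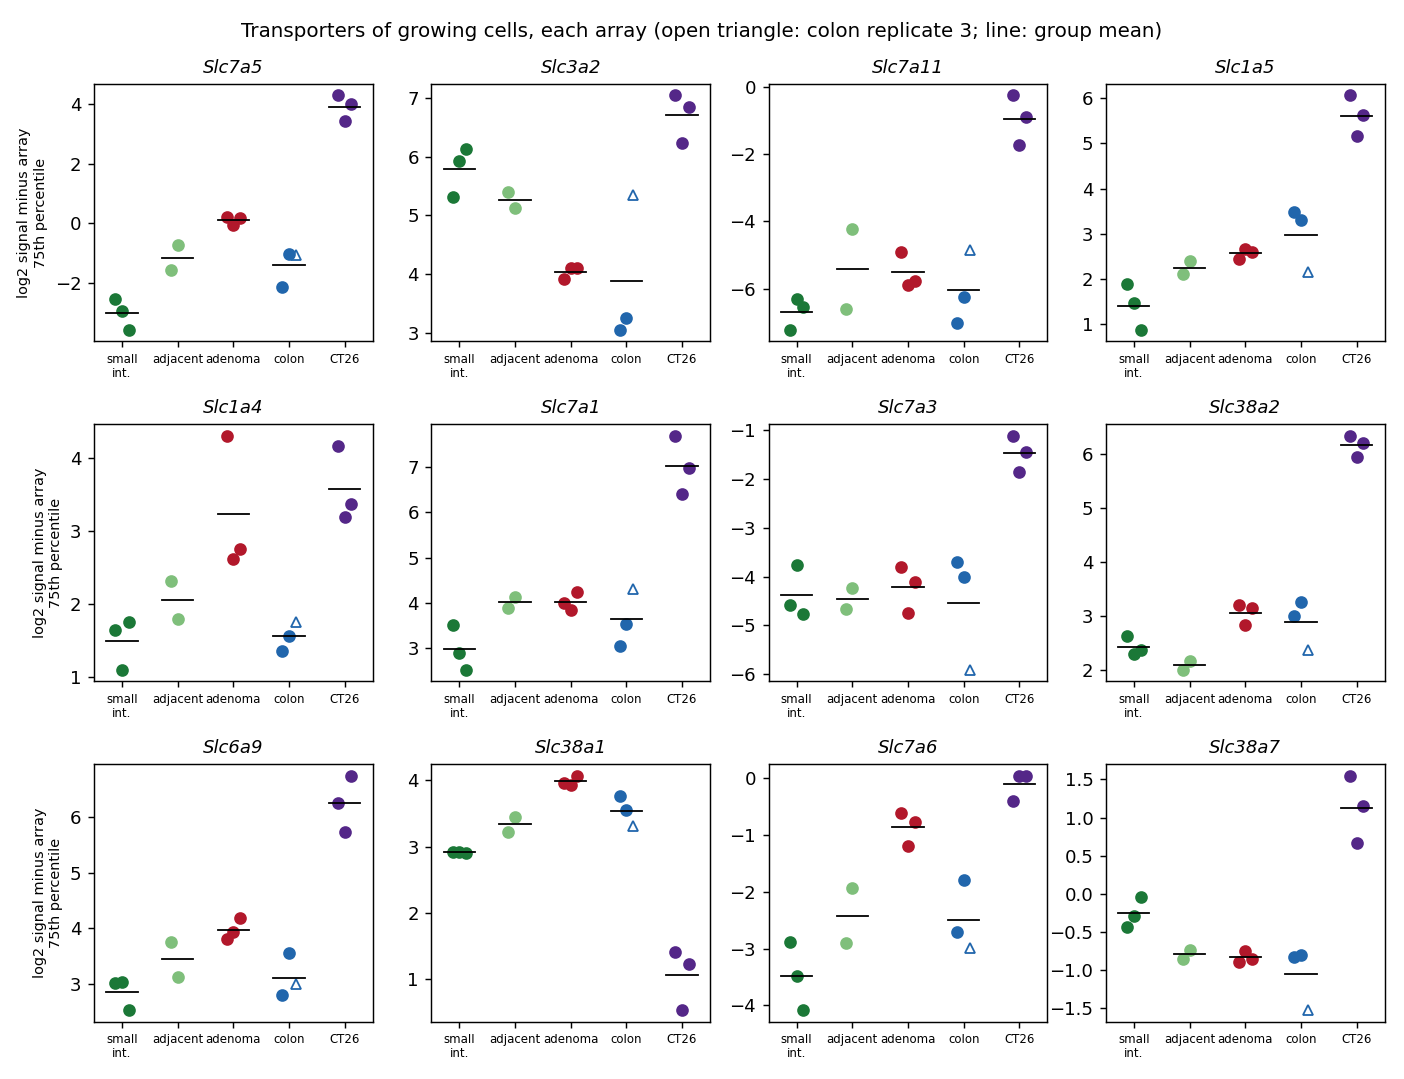
Log2 signal minus the array's 75th percentile (vertical axes, each panel with its own range) of 12 transporters on each array of the 5 groups, with the group mean as a line and colon replicate 3 as an open triangle. CT26 is the highest group for 10 of the 12 by every array, with Slc7a5 at 3.43 to 4.29; in Slc38a1 it is the lowest, and in Slc1a4 it overlaps adenoma.

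Outside the set, Slc38a4 was at least 19.3-fold above colon (limma adjusted p = 6.05e-05), Slc1a2 was -0.29, -0.60 and -1.01 in CT26 against -4.45, -4.66 and -4.50 in colon (log2 fold change 3.90, SE 0.30, limma adjusted p = 3.97e-05), and Slc7a6 (2.39) and the lysosomal glutamine carrier Slc38a7 (2.18) were higher as well. On the list of ATF4 and its targets that are no members, 17 of 19 were higher in CT26 than in colon and 1, Atf3, was lower (-6.90); the other gene, Nupr1, had 0.54 and was not called. Without colon replicate 3, 16 were higher and 1 lower, Ddit4 no longer being called. Atf4 had 2.31 (limma adjusted p = 0.00186), Asns, which makes asparagine, 3.91, Trib3 6.93 (8.10 without colon replicate 3) and the serine synthesis enzymes Phgdh and Psat1 6.34 and 5.90. In adenoma against small intestine 6 of these 19 were higher and 2 lower, with Phgdh at 3.55, Ddit3 at -2.37 and Atf4 at -0.42.

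The list of cystine, glutathione and NRF2 genes did not move as Slc7a11 did: of 12 tested, Hmox1 and Chac2 were higher in CT26 than in colon and Nqo1 lower, also without colon replicate 3. Of 16 genes that sense amino acids upstream of mTORC1, 6 were higher, Mtor (1.59), Rheb and Rragc among them, and Sesn3 was lower (-7.18); without colon replicate 3 it was 7 higher and 1 lower. Of 8 genes of glutamine use, Got1, Got2 and Gpt2 were higher and Gpt was lower; without colon replicate 3 Glul was lower as well.

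The members lower in CT26 were led by Slc7a4, a relative of the cationic carriers whose own transport is not established, at -6.66, -5.83 and -6.31 in CT26 and 2.74, 2.79 and 2.08 in colon. Slc7a4 was above background on no CT26 array and on every array of the other groups, at least 225-fold lower than in colon (limma adjusted p = 1.80e-06); the other Slc7a4 probe was above background on no array. Slc43a2 (at least 114-fold), Slc6a14 (at least 108-fold), Slc6a4 (at least 46.4-fold), Slc7a8 (at least 34.0-fold), Slc7a14 (at least 14.6-fold) and Slc43a1 (at least 12.7-fold) were also above background on no CT26 array. Without colon replicate 3 the bounds for Slc43a2, Slc6a14, Slc6a4 and Slc7a8 were 30.2, 240.0, 20.8 and 15.1.

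Slc7a7 stayed above background in CT26, at -1.70, -0.34 and -0.35 against 3.82, 3.84 and 6.95 in colon, a log2 fold change of -5.67 (SE 0.86, limma adjusted p = 0.00120) that was -4.63 without colon replicate 3. Slc1a1, Slc43a3 and Slc1a6 had log2 fold changes of -5.31, -3.75 and -2.04, with 2, 3 and 1 of the CT26 arrays above background; without colon replicate 3 Slc1a1 had -4.45. Slc38a11, Slc36a2 and Slc6a13, above background on no CT26 array, were at least 8.65-fold, 2.47-fold and 2.37-fold lower. The members listed as lower in CT26 fell together with the epithelial markers, of which 8 of 8 were lower (median -12.94), and with smooth muscle (8 of 8) and lymphocyte markers (6 of 8), counts that were the same without colon replicate 3; the summed level of the epithelial markers was 10.42 to 11.27 in colon and 4.93 to 5.78 in CT26. Their part was not tested.

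Between CT26 and adenoma, which share arrays with the comparisons above, 10 of 45 members tested were higher in CT26 and 20 lower, 66.7%, whereas 41.9% of all genes tested were called, 21.9% higher and 20% lower. The higher ones included 8 of the 10 carriers of dividing cells, Slc7a11 (at least 17.1-fold), Slc7a5 (3.80, SE 0.26, limma adjusted p = 8.12e-06), Slc38a2 (3.09), Slc1a5 (3.04), Slc7a1 (3.0), Slc7a3 (2.75), Slc3a2 (2.66) and Slc6a9 (2.28), with Slc38a7 (1.97) and Slc38a6 (1.42) besides. Slc1a4 had 0.35 (limma adjusted p = 0.552) and Slc1a2 0.54 (limma adjusted p = 0.0892), so for these no difference between the tumor groups was called. The adenoma values of Slc1a4 were 4.31, 2.62 and 2.76 and those of CT26 4.17, 3.20 and 3.37.

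The lower ones were led by Slc7a4 (at least 208-fold), Slc43a2 (at least 121-fold), Slc7a8 (at least 55.9-fold) and Slc6a19 (at least 55.8-fold). Slc38a4 was 17.2-fold lower in CT26 than in adenoma (log2 fold change -4.10, SE 0.30, limma adjusted p = 1.11e-05) although it was above background on all arrays of both groups. Slc6a13 (at least 13.4-fold) and Slc1a3 (at least 12.9-fold), both raised in adenoma over small intestine, were above background on no CT26 array. Slc7a15, Slc43a1, Slc6a4, Slc38a5, Slc6a3, Slc6a17 and Slc36a2 were likewise above background on no CT26 array, with bounds from 1.64-fold (Slc36a2) to 21.3-fold (Slc7a15). The other lower members were Slc7a7 (-5.88), Slc3a1 (-5.14), Slc43a3 (-4.62), Slc6a12 (-3.28, above background on 1 CT26 array), Slc38a1 (-2.93) and Slc7a9 (-2.76).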

How the data were processed

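RNA of 14 samples was labelled with Cy3 and hybridised to 1-colour Agilent mouse arrays of 62976 spots. The deposited scanner files hold the processed signal, an intensity that per the file headers Feature Extraction 10.7.3.1 detrended within the array, by a spatial fit of the background and a multiplicative fit, and did not normalize between arrays. The authors also deposited a table of log2 values normalized between arrays by a method not given in the sources used here, used as an alternative. The 28 flag and detection columns of that table, and its fold changes and p-values of the authors' own comparisons, were not used. Probe positions are those of mm9 (NCBI build 37) in the files.

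Control spots and outlier spots were left out, log2 signals were centred on each array's 75th percentile, and spots of 1 probe were averaged, leaving 55681 probes. Probes above background on every array of 1 of the compared groups were fitted with limma 3.58.1 in R 4.3.3, separately for each of 6 comparisons, with the study's thresholds (log2 fold change 1.2, adjusted p 0.01). Each gene was read from its brightest probe. The test was also run on simulated arrays with independent noise and known changes in a few probes. Such arrays cannot check dependence between arrays, an outlying array or signals near background. The labels name no animal or culture per array, so p-values measure only the spread between these arrays, and the number of arrays limits the precision. At most the 8 called members with the largest fold change per direction were described in full, the other called members by their values, and the members of the role lists whether called or not. Promoters were RefSeq windows of GRCm38.p6. Members, role lists, marker lists and the promoter motif were chosen with earlier results of these data known. Alternatives were other scalings, background correction, filter, probe rule and threshold, 1 fit of 5 groups, slide or replicate number as a block, and each array left out. Values of 2 genes on the lists are not reported here.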

Additional observations from a re-analysis of the deposited data

How the results depend on the processing

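The counts of members called are given here under the alternatives that moved them. For adenoma against small intestine the count was 23 and became 12 (8 higher, 4 lower; 17.5% of all genes called) with 1 fit of 5 groups, which shares the spread of colon replicate 3, and 24 (21.8%) in that fit without colon replicate 3. For adenoma against adjacent tissue it was 10 and became 2 (0.149% of all genes) with no filter on dim probes, 4 (0.896%) with 1 fit of 5 groups, 3 (0.73%) with the slide as a block and 20 (9.62%) at an adjusted p of 0.05. The call for Slc38a5 against small intestine was also lost without adenoma replicate 2 or 3 or small intestine replicate 1 or 2. For adjacent tissue against small intestine it was 0 and became 2 (1.62%) at an adjusted p of 0.05 and 2 (2.5%) in the 1 fit without colon replicate 3, an alternative chosen after seeing the data. For colon against small intestine it was 0 and became 1 (3.86%) with 1 fit of 5 groups, 1 (0.538%) at an adjusted p of 0.05 and 16 (14.8%) in the 1 fit without colon replicate 3. With 1 array left out at a time, the counts ran from 16 to 26 for adenoma against small intestine, 0 to 10 for adenoma against adjacent tissue, 0 to 0 for adjacent tissue against small intestine, 0 to 12 for colon against small intestine, 24 to 33 for CT26 against colon and 28 to 31 for CT26 against adenoma. For the other changes the cause was not tested.

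With the replicate number as a block (replicate block), adenoma against adjacent tissue gave 0 calls (0.369% of all genes), also when the numbers in the titles were used, while the other comparisons gave 22 (adenoma against small intestine), 0, 0, 29 (CT26 against colon) and 30 (CT26 against adenoma). Deviations of same-numbered arrays correlated between -0.09808 and 0.3017 and not above 0.1 for every pair in any comparison of 3 pairs. With so few arrays per group, these values cannot show whether arrays were paired. The adjacent arrays carry other numbers in their titles than as replicates. The correlations above pair arrays by replicate number, and none was computed for pairs by title number. Over the 91 calls, 1084 of 1274 refits kept the call, 190 lost it and 0 turned its direction. Another scaling moved the median of all genes from 0.32 to 0.11 (normexp) for CT26 against colon, from 0.34 to 0.21 (normexp) for CT26 against adenoma, and from -0.15 to -0.03 (authors' values) for adenoma against small intestine. The group with the highest mean stayed the same for 46 of 50 members in the authors' values, 50 after normexp and 48 after quantile normalization. Signal near background limits Slc36a2 and Slc6a17, whose adenoma levels lie close to the dimmest signal still above background.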
